A study of Mus musculus with 14 samples.

Results

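Fatty acid desaturases put double bonds into the carbon chains of lipids, most of them into acyl chains bound to coenzyme A. The stearoyl-CoA desaturases (Scd genes) place the first double bond at the ninth carbon of a saturated chain and so make oleate and palmitoleate, the main monounsaturated fatty acids of stored triglyceride. The fatty acid desaturases of the Fads family act on other chains: Fads2 and Fads1 are the delta-6 and delta-5 desaturases that turn dietary linoleate and linolenate into long polyunsaturated fatty acids, Fads3 acts on the sphingoid base of sphingolipids, and Fads6 is an orphan member with no settled substrate. In fat, Scd1 is a classical target of insulin and of the lipogenic transcription factors SREBP-1c, ChREBP and LXR.

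The 8 mouse genes Scd1, Scd2, Scd3, Scd4, Fads1, Fads2, Fads3 and Fads6 were followed by symbol in a table of 55471 genes. They were read in brown adipose tissue, the heat-producing fat depot, by RNA sequencing of 14 libraries from male mice 10 weeks old. Wild-type mice (WT) and mice with a knockout of CLSTN3B (calsyntenin-3b) restricted to adipocytes (AdC3KO) were kept at thermoneutrality (30 °C) for 2 weeks. The 30 °C groups comprised 3 libraries each, and the 4 °C groups, whose mice then spent 6 h at 4 °C, comprised 4 each. The study's title concerns the part of this protein in lipid droplet expansion. No source used here names the Cre driver of the knockout. Separate animals per library are not stated, so p-values reflect library-to-library spread, which may be technical.

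Libraries held 19.9 M to 29.03 M gene counts (M, units of 1e6). Levels are counts per M (CPM) after TMM scaling, as mean ± SD, and CPM per kb of exon where genes are set against each other. Clstn3 ran from 182 to 228 CPM in WT and from 14.8 to 17.3 CPM in AdC3KO at 30 °C, and from 970.0 to 1195 CPM against 53.8 to 77.9 CPM at 4 °C, so every AdC3KO library was below every WT library of its temperature. None of the 6 adipocyte and 5 brown adipocyte markers was at 0 in any library. Skeletal muscle transcripts stood out in 5 libraries, namely WT library 3 and AdC3KO libraries 1 and 2 at 30 °C, WT library 2 and AdC3KO library 3 at 4 °C, with a mean log2 CPM of the 8 muscle markers of 1.61 to 5.41 against −4.47 to −3.24 in the other 9.

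The 4 Scd genes lie in a cluster of 204.6 kb on chromosome 19 of GRCm38, and Fads1, Fads2 and Fads3 lie on the same chromosome within 155.3 kb. Scd1 is at chr19:44394455-44407879 on the minus strand, and Scd2 (chr19:44293674-44306864), Scd3 (chr19:44203269-44244016) and Scd4 (chr19:44333092-44346743) are on the plus strand. Fads1 is at chr19:10182888-10196877 (plus), Fads2 at chr19:10062765-10101746 (minus) and Fads3 at chr19:10041569-10060110 (plus), with 2654 bases between the last 2. Fads6 lies apart, at chr11:115279622-115297663 on the minus strand.

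The Scd genes are close copies, which bears on how their reads can be told apart. Over the coding sequence Scd1 was 90.3% identical to Scd2, 91.5% to Scd3 and 85.1% to Scd4, against 67.8% between Fads1 and Fads2 and 71.1% between Fads2 and Fads3. Of the 50-base stretches of the transcripts of each gene, 4.56% in Scd1, 3.75% in Scd2, 6.26% in Scd3 and 3.01% in Scd4 also occurred in another of the 8 genes, while for the 4 Fads genes this was 0 to 0.152%. Counting any other gene, the share was 5.54% in Scd4 and 1.69% in Fads6. The 60 coding bases that begin at a histidine box of the active site, as annotated in GENCODE vM21 on GRCm38, show the extent of the likeness. They are written 5′ to 3′ with capitals where the base differs from Scd1.
Scd1: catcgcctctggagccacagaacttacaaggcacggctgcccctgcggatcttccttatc
Scd2: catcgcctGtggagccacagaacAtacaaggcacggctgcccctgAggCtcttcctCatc
Scd3: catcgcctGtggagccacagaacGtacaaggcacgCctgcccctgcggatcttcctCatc
Scd4: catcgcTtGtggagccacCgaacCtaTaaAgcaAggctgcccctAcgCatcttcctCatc
Scd2 differed from Scd1 at 5 of these 60 bases, Scd3 at 4 and Scd4 at 10. Reads from such stretches can be shared between the genes, and no source used here says how reads that align to several places were treated. The counts of the rarer copies, Scd3 and Scd4, are therefore uncertain.

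In WT the desaturases did not share a direction after 6 h at 4 °C. Scd2 and Fads1 fell, Fads3 rose, and Scd1, Fads2 and Fads6 did not pass the test. The WT calls of Fads1 and Fads3 did not hold under every alternative run. Scd3 was also called higher, but it entered the test only through its 4 °C libraries, so its call and the counts that hold it are descriptions. The same 4 genes passed in AdC3KO, with the same signs. Of the 8 genes 7 were tested, and 2 were higher and 2 lower at 4 °C in each genotype at an adjusted p below 0.05 (edgeR quasi-likelihood test with Benjamini-Hochberg adjustment over 15949 genes). Of all tested genes 61.4% were called in WT and 63% in AdC3KO, that is 30.6% and 31% of all tested genes higher and 30.8% and 32.1% lower. A share of 4 in 7 is thus near that of all genes. The median log2 fold change of the 7 was 0.25 in WT and 0.24 in AdC3KO, against −0.026 and −0.056 over all genes. Levels did not overlap between temperatures for 3 of the 7 in WT, 1 higher and 2 lower, and for 4 in AdC3KO, 2 higher and 2 lower. Among all genes 60.3% did not overlap in WT (29.9% higher, 30.4% lower) and 64.1% in AdC3KO (30.9% higher, 33.2% lower). In tissue RNA, fewer cells of a type and less RNA per cell cannot be told apart. Markers of other cells were summed in each library. Macrophage markers ran from 126 to 191 CPM at 30 °C and 139 to 447 CPM at 4 °C, and red blood cell markers from 245 to 385 and 326 to 622 CPM. Endothelial markers summed to 588 to 791 CPM and 992 to 1241 CPM, with 3 of 5 higher and 2 lower in each genotype: Tie1 changed by −1.09 in WT and −1.01 in AdC3KO, and Tek by −0.99 and −0.94. None of these markers was at 0 in any library. Fibroblast markers ran from 582 to 962 CPM and 649 to 968 CPM. Brown adipocyte markers summed to 3945 to 5744 CPM at 30 °C and 13141 to 18921 CPM at 4 °C, and Ucp1 was the 1 marker of 5 called higher (2.96 in WT, 3.09 in AdC3KO). Ebf2 (−1.03), Prdm16 (−0.46) and Cidea (−0.38) were lower in WT, and Ebf2 (−1.21) in AdC3KO. The part of these cells in the results was not tested.

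**Figure D1:**
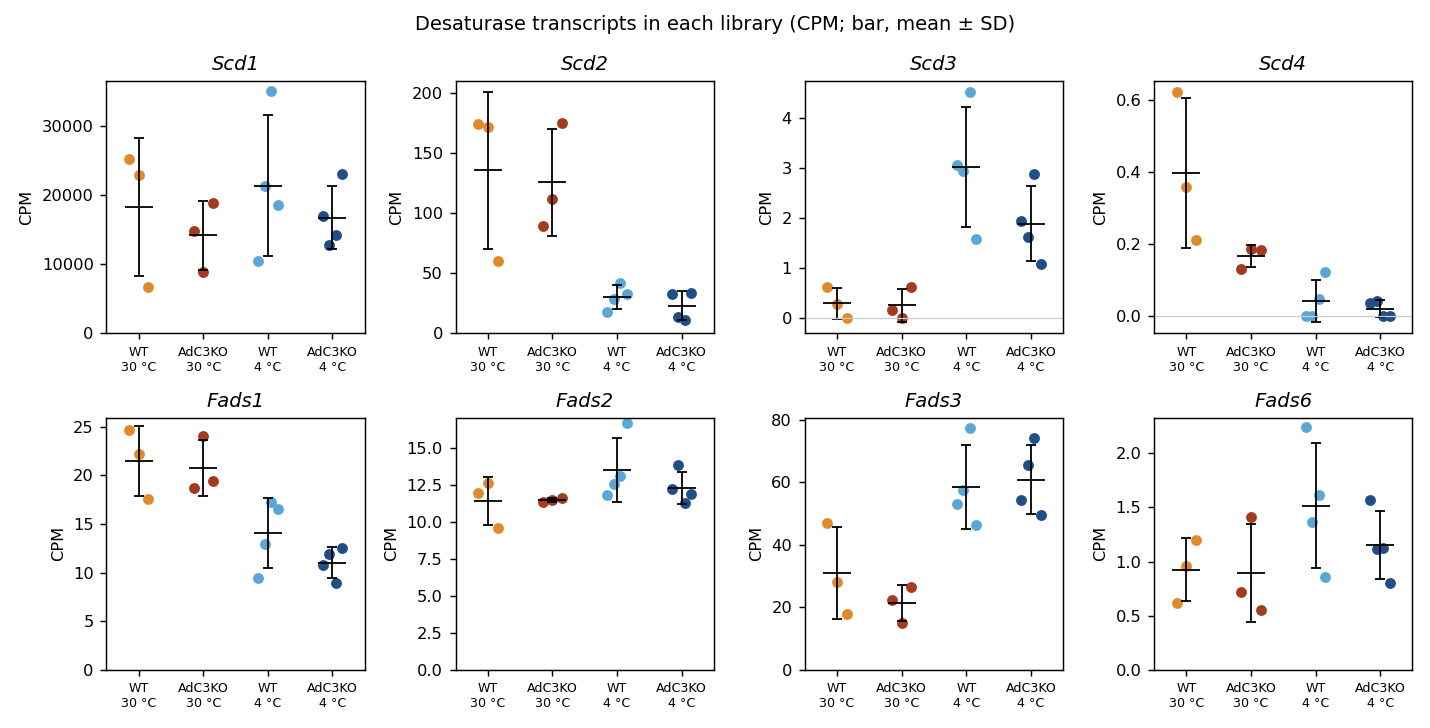
CPM of each desaturase (vertical axes, linear) in each library (points) of the 4 groups (horizontal axes), with the mean and SD as bars. Scd2 and Fads1 were lower and Scd3 and Fads3 higher at 4 °C, while Scd1 spread from 6722 to 35102 CPM with no separation of the groups.

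Scd1, the main stearoyl-CoA desaturase of fat and liver, was among the most abundant transcripts of the tissue. It took 0.783% to 3.19% of all gene counts and ranked between 2nd and 11th of all genes in every library. At 30 °C it was at 25177, 22863 and 6722 CPM in WT and at 14818, 8859 and 18824 CPM in AdC3KO. At 4 °C it was at 10489, 21321, 35102 and 18493 CPM in WT and at 16906, 12756, 14157 and 23082 CPM in AdC3KO. Libraries of the same group thus lay up to 3.75-fold apart, and every group overlapped every other. The cold response was 0.23 on the log2 scale in WT (SE 0.47, 95% interval −0.80 to 1.25, adjusted p = 0.701) and 0.24 in AdC3KO (SE 0.47, 95% interval −0.79 to 1.26, adjusted p = 0.678). The intervals reach from a fall to 0.575 of the 30 °C level to a rise of 2.38-fold in WT, so a rise of 2-fold lies inside the interval and a fall of 2-fold outside it, and the same holds in AdC3KO (0.580 to 2.40). With upper-quartile scaling in place of TMM the WT value was −0.024, and without the libraries with muscle transcripts it was −0.17 in WT and −0.10 in AdC3KO.

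The 30 °C libraries with the lowest Scd1, WT library 3 and AdC3KO library 2, both held muscle transcripts, at summed levels of 174 and 29.2 CPM over the 8 markers. AdC3KO library 1 at 30 °C held 60.9 CPM of them with Scd1 at 14818 CPM. At 4 °C, WT library 2 held 41.8 CPM with Scd1 at 21321 CPM, and AdC3KO library 3 held 406 CPM with Scd1 at 14157 CPM. The part of these transcripts in the spread of Scd1 was not tested. Fasn, the fatty acid synthase that makes the palmitate on which Scd1 acts, was named after its values were seen. It too was lowest at 30 °C in WT library 3, at 1502 CPM against 6495 and 6681 CPM in the other WT libraries, and in AdC3KO library 2, at 2187 CPM against 3293 and 3726 CPM. At 4 °C Fasn was highest in WT library 3, at 2384 CPM, as was Scd1. The lowest 4 °C libraries differed, AdC3KO library 3 for Fasn (613 CPM) and WT library 1 for Scd1 (10489 CPM). Mean Fasn was 4893 ± 2938 CPM at 30 °C and 1620 ± 786 CPM at 4 °C in WT. In AdC3KO it was 3069 ± 794 and 1147 ± 688 CPM. Mean Scd1 was 18254 and 21351 CPM in WT, and 14167 and 16725 CPM in AdC3KO.

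Scd2, the isoform best known from brain and from developing skin and liver, was far below Scd1 and fell in the cold. Its level at 30 °C was 174, 172 and 60.3 CPM in WT and 89.2, 112 and 175 CPM in AdC3KO. At 4 °C it was 17.3, 28.3, 41.6 and 32.3 CPM in WT and 32.6, 13.6, 10.8 and 33.3 CPM in AdC3KO. The lowest library at 30 °C, WT library 3, still stood above the highest at 4 °C. The log2 fold change was −2.18 in WT (SE 0.50, adjusted p = 0.00303), which is 4.52-fold lower, and −2.47 in AdC3KO (SE 0.51, adjusted p = 0.00137), which is 5.53-fold lower. These calls held under every alternative run, with −2.53 to −1.95 in WT and −2.72 to −2.15 in AdC3KO. Schwann cell transcripts, from the myelinating glia of peripheral nerve, moved the same way. Their 6 markers summed to 42.2 to 54.5 CPM at 30 °C and 23.3 to 33.9 CPM at 4 °C. None was at 0 in any library at 30 °C and at most 1 was at 4 °C. Of the 6, 5 of 6 were called lower in WT and 3 of 6 in AdC3KO, beside 30.8% and 32.1% of all genes. The WT calls include Ncmap, which entered the test only through its 30 °C libraries. It averaged 0.47 CPM at 30 °C and 0.090 CPM at 4 °C in WT. Its call and the count of 5 that holds it are descriptions. Among the 6 the myelin gene Mbp changed by −0.87 (SE 0.14) in WT and −0.81 (SE 0.14) in AdC3KO. Prx averaged 1.75 CPM at 30 °C and 1.96 CPM at 4 °C in AdC3KO. The part of these cells in the fall of Scd2 was not tested.

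Scd3, an isoform best known from skin and its sebaceous glands, was almost absent at 30 °C and present at a low level at 4 °C. It had 15, 7 and 0 counts in WT and 5, 0 and 17 counts in AdC3KO at 30 °C. At 4 °C it had 52, 56, 95 and 39 counts in WT and 52, 38, 59 and 26 counts in AdC3KO. In CPM this was 0 to 0.628 at 30 °C and 1.096 to 4.51 at 4 °C, so that the lowest cold library stood above the highest at 30 °C. The log2 fold change was 3.35 in WT (SE 0.86, adjusted p = 0.00402) and 2.82 in AdC3KO (SE 0.86, adjusted p = 0.011). Scd3 passed the filter on low counts only through the 4 °C groups, and without the filter the values were 3.25 (adjusted p = 0.0222) and 2.73 (adjusted p = 0.0484). The size of the fold hangs on single 30 °C libraries. In WT it was 4.45 without library 1 and 2.74 without library 3, and in AdC3KO it was 4.38 without library 3. In AdC3KO the call was lost without library 1 (2.57, adjusted p = 0.0505) and without the libraries with muscle transcripts (1.30, adjusted p = 0.169). The latter fit leaves AdC3KO at 30 °C with 1 library, which is assumed to vary like the other groups. In WT that fit gave 2.74, with a difference from 3.35 of over 1.5-fold.

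Because Scd3 shares stretches with the far more abundant Scd1, the counts of the rarer isoforms were also set against those of Scd1 in the same library. Scd3 had 0 to 3.33 counts per 100000 Scd1 counts at 30 °C and 4.75 to 29.2 at 4 °C. The libraries without any Scd3 count had 191043 and 238214 Scd1 counts, the fewest at 30 °C. The other 30 °C libraries had 453025 to 607931 Scd1 counts and 5 to 17 Scd3 counts. At 4 °C, WT library 1 had the fewest Scd1 counts, 177967, with 52 Scd3 counts. The part of Scd1 reads in the Scd3 counts was not tested. Scd2 went the other way from Scd3, from 602 to 1264 counts per 100000 Scd1 counts at 30 °C to 76.0 to 193 at 4 °C. Neither ratio overlapped between the temperatures. Markers of skin cells, where Scd3 is otherwise found, summed to 8.93 to 11.9 CPM at 30 °C and 5.89 to 11.05 CPM at 4 °C, and 3 or 4 of these 7 markers were at 0 in every library.

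Scd4, the isoform known from heart, was the rarest of the family and did not pass the filter on low counts, so that it was not tested in the main comparison. It had 15, 9 and 6 counts in WT and 4, 5 and 5 counts in AdC3KO at 30 °C. At 4 °C it had 0, 0, 1 and 3 counts in WT and 1, 1, 0 and 0 counts in AdC3KO. Every 30 °C library was above every 4 °C library in CPM. Summed over libraries, 30 counts against 4 in WT gave a depth-scaled ratio of 7.89 (95% counting interval 2.78 to 30.8), and 14 against 2 in AdC3KO gave 7.80 (1.79 to 70.7). An exact permutation test on CPM, two-sided, gave p = 0.0286 in each genotype, the smallest p that 3 libraries against 4 can give. The separation of the libraries fixes this p, so the test only restates it. Neither the ratios nor this test were planned beforehand. Without the filter edgeR gave an adjusted p of 0.00746 in WT and 0.0348 in AdC3KO, and DESeq2 gave 0.0113 and 0.0509.

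Per kb of exon, Scd1 made up 99.3 ± 0.092% of the summed Scd level in WT and 99.2 ± 0.292% in AdC3KO at 30 °C (SD, n = 3 each), and 99.8 ± 0.029% and 99.9 ± 0.040% at 4 °C (SD, n = 4 each). Scd2 made up 0.693 ± 0.093% in WT and 0.827 ± 0.292% in AdC3KO at 30 °C (SD, n = 3 each). At 4 °C it made up 0.132 ± 0.023% and 0.116 ± 0.045% (SD, n = 4 each). Scd1 stood 88.3 to 185 times above Scd2 per kb at 30 °C and 579 to 1471 times at 4 °C. These shares are descriptions and were not tested.

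**Figure D2:**
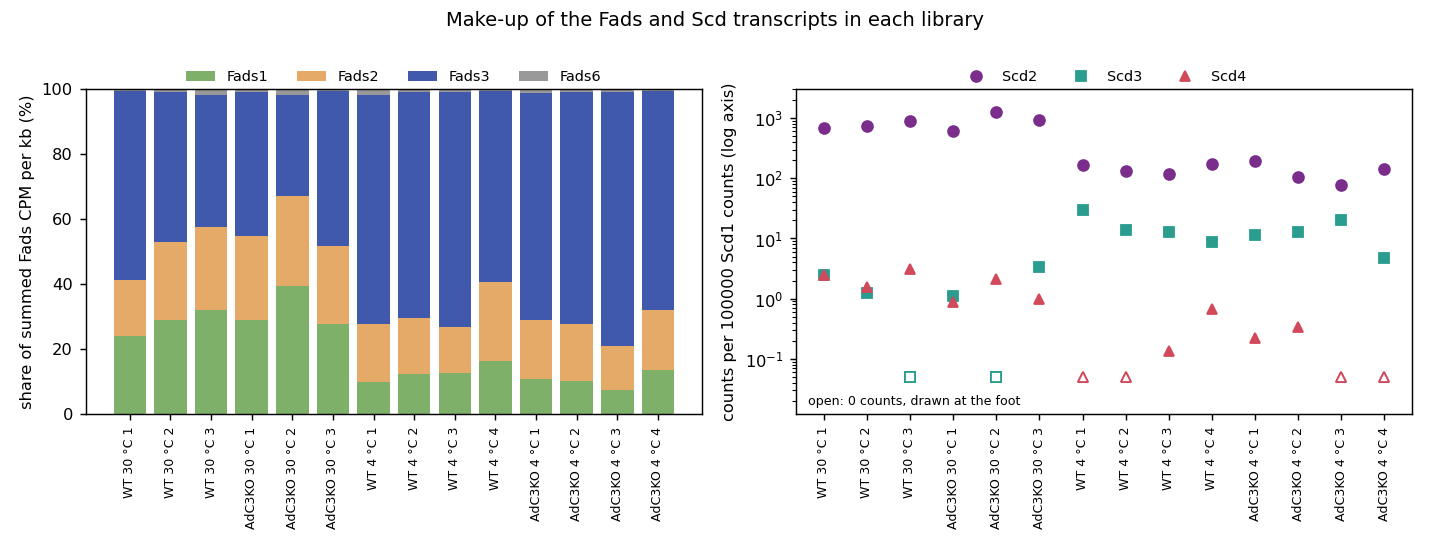
Left, share of each Fads gene in the summed Fads level (CPM per kb of exon, percent) in each library. Right, counts of Scd2, Scd3 and Scd4 per 100000 Scd1 counts on a log axis, open symbols standing for 0 counts; Scd2 and Scd4 were lower and Scd3 higher in every 4 °C library than in any 30 °C library.

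Fads1, the delta-5 desaturase that yields arachidonate and eicosapentaenoate, fell in the cold. It was at 24.7, 22.2 and 17.6 CPM in WT and at 18.7, 24.0 and 19.5 CPM in AdC3KO at 30 °C. At 4 °C it was at 9.43, 12.9, 17.2 and 16.6 CPM in WT and at 10.8, 11.9, 8.89 and 12.6 CPM in AdC3KO. The temperatures did not overlap in either genotype, with the closest pair in WT at 17.6 and 17.2 CPM. The log2 fold change was −0.61 in WT (SE 0.19, adjusted p = 0.00968) and −0.91 in AdC3KO (SE 0.19, adjusted p = 0.000503). The call was lost in WT without library 1 at 30 °C (−0.50, adjusted p = 0.0567) and in AdC3KO without the libraries with muscle transcripts (−0.73, adjusted p = 0.0545).

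Fads2, the delta-6 desaturase that starts the same pathway and limits its rate, was the steadiest of the genes. It stayed between 9.61 and 12.7 CPM at 30 °C and between 11.3 and 16.7 CPM at 4 °C, and the 3 AdC3KO libraries at 30 °C lay within 11.4 to 11.6 CPM. The log2 fold change was 0.25 in WT (SE 0.14, 95% interval −0.041 to 0.54, adjusted p = 0.127) and 0.10 in AdC3KO (SE 0.14, 95% interval −0.19 to 0.39, adjusted p = 0.546). The upper bounds, 1.45-fold in WT and 1.31-fold in AdC3KO, leave out a rise of 2-fold. In AdC3KO the sign turned with upper-quartile scaling (−0.13) and with a filter at 5 CPM (−0.054).

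Fads3, the sphingoid base desaturase, rose. At 30 °C it was at 46.8, 28.0 and 17.7 CPM in WT and at 22.4, 14.99 and 26.4 CPM in AdC3KO. At 4 °C it was at 53.1, 57.5, 77.6 and 46.3 CPM in WT and at 54.5, 65.6, 74.1 and 49.4 CPM in AdC3KO. The temperatures did not overlap in AdC3KO, while in WT the highest library at 30 °C was just above the lowest at 4 °C. In AdC3KO the call held under every alternative run, but only just within the cutoff in the weakest. These runs include the fit with 1 AdC3KO library at 30 °C. The log2 fold change in AdC3KO was 1.52 (SE 0.32, adjusted p = 0.00114), which is 2.86-fold, and 1.09 to 1.70 over those runs. In WT it was 0.93 (SE 0.31, adjusted p = 0.0202), and it did not pass with upper-quartile scaling (0.68, adjusted p = 0.0741), without the filter (0.83, adjusted p = 0.0839), in a fit of the WT groups alone (0.92, adjusted p = 0.0533) or without the libraries with muscle transcripts (0.65, adjusted p = 0.0908). Single WT libraries also decided the call: it was lost when library 2 at 30 °C was left out (0.87, adjusted p = 0.0684), when library 3 at 30 °C was (0.65, adjusted p = 0.066), and when library 3 at 4 °C was (0.76, adjusted p = 0.0525).

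Fads6 was the rarest of its family, with 15 to 42 counts per library. It was at 0.621, 0.958 and 1.196 CPM in WT and at 0.720, 1.41 and 0.554 CPM in AdC3KO at 30 °C. At 4 °C it was at 2.24, 1.36, 1.61 and 0.856 CPM in WT and at 1.57, 1.12, 1.12 and 0.801 CPM in AdC3KO. The groups overlapped, and the log2 fold change was 0.69 in WT (SE 0.40, 95% interval −0.16 to 1.55, adjusted p = 0.149) and 0.37 in AdC3KO (SE 0.40, 95% interval −0.48 to 1.22, adjusted p = 0.441).

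Per kb of exon, Fads3 had the largest mean share of its family in all 4 groups, and its mean share was larger at 4 °C. In AdC3KO library 2 at 30 °C, however, Fads1 (39.5%) was above Fads3 (31.3%), and by counts the AdC3KO means at 30 °C were 38.3% and 38.8%. It made up 48.4 ± 8.87% in WT and 41.1 ± 8.66% in AdC3KO at 30 °C (SD, n = 3 each). At 4 °C it made up 67.7 ± 6.20% in WT and 71.8 ± 4.66% in AdC3KO (SD, n = 4 each). Fads1 made up 28.4 ± 3.91% and 32.1 ± 6.46% at 30 °C, against 12.8 ± 2.75% and 10.5 ± 2.50% at 4 °C. Fads2 made up 22.2 ± 4.47% and 25.8 ± 1.73% at 30 °C and 18.4 ± 4.26% and 16.9 ± 2.21% at 4 °C. Fads6 stayed at 0.785% to 1.03% on average in the 4 groups. At 30 °C the mean level over both genotypes was 6.88 CPM per kb for Fads3, 4.39 for Fads1 and 3.47 for Fads2, below the 23.9 of Scd2. In the cold, means were 15.8 for Fads3, 3.92 for Fads2 and 2.61 for Fads1, and 4.798 for Scd2.

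**Figure D3:**
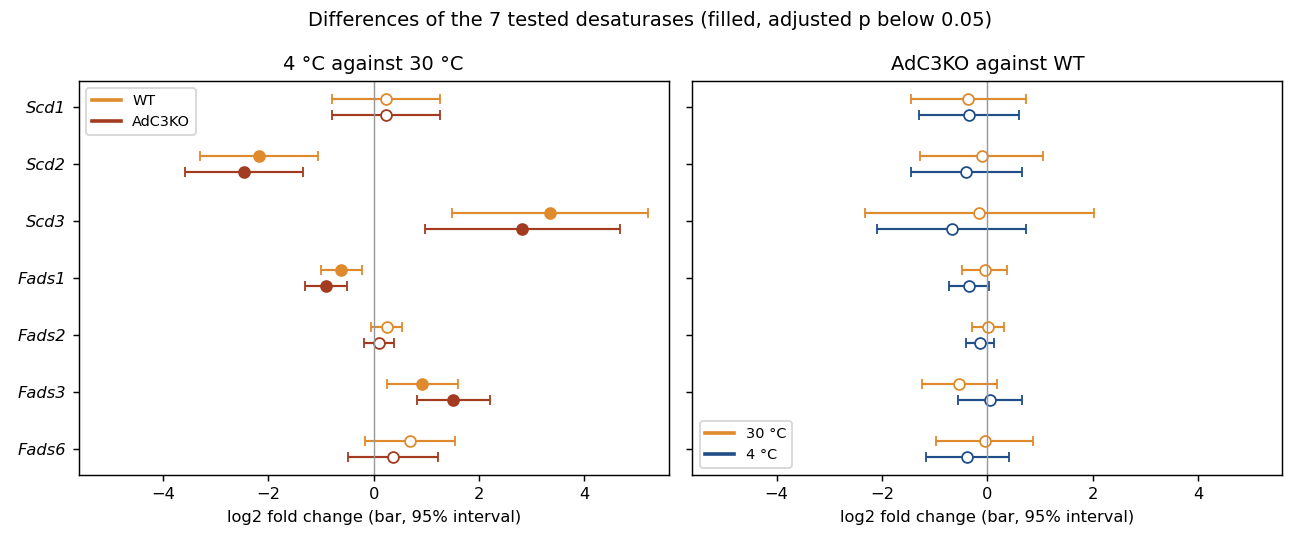
Log2 fold change with its 95% interval (horizontal axes) of the 7 tested desaturases, for 4 °C against 30 °C in each genotype (left) and AdC3KO against WT at each temperature (right). Filled points, an adjusted p below 0.05, occur for Scd2, Scd3, Fads1 and Fads3 in the left panel alone.

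Between the genotypes no desaturase differed by the test. At 30 °C 0 of 7 were called by edgeR, beside 0.0439% of all genes (0.0376% higher, 0.00627% lower), and each had an adjusted p of 1. At 4 °C 0 of 7 were called, beside 0.0502% (0.0439% higher, 0.00627% lower), with adjusted p from 0.963 to 0.993. In the interaction, the AdC3KO cold response less the WT one, 0 were called, as for all genes (0%). No member had an unadjusted p below 0.05 in these 3 comparisons, and DESeq2 called 0 in each. The levels of AdC3KO and WT overlapped for each of the 7 at both temperatures, where 7.29% of all genes did not overlap at 30 °C (4.01% higher, 3.28% lower) and 2.27% at 4 °C (1.31% higher, 0.959% lower). The comparisons between genotypes use the same libraries as those between temperatures. For the untested Scd4, the 3 AdC3KO libraries at 30 °C (4 to 5 counts) were all below the 3 WT libraries (6 to 15 counts). The log2 difference at 30 °C was −1.22 (SE 0.84) by edgeR without the filter and −1.25 (SE 0.94) by DESeq2. Neither fit called it.

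The precision of the genotype comparisons differed between the genes. For Fads2 the log2 difference was 0.011 at 30 °C (95% interval −0.30 to 0.32) and −0.14 at 4 °C (−0.41 to 0.13). For Fads1 it was −0.053 at 30 °C (−0.47 to 0.37) and −0.35 at 4 °C (−0.72 to 0.025, unadjusted p = 0.0656). For Scd1 it was −0.37 at 30 °C (−1.46 to 0.73) and −0.35 at 4 °C (−1.30 to 0.59), and for Scd2 −0.11 (−1.27 to 1.05) and −0.40 (−1.45 to 0.65). The interaction of Fads3 was 0.59 (−0.35 to 1.52), and that of Scd2 −0.29 (−1.85 to 1.27). At both temperatures a level 2-fold lower in AdC3KO was thus outside the intervals of Fads1 and Fads2 and inside those of Scd1 and Scd2. A level 2-fold higher was outside the intervals of Fads1, Fads2 and Scd1 at both temperatures, and of Scd2 at 4 °C.

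Desaturation draws electrons from NADH or NADPH through cytochrome b5 and its reductase. Of 5 tested genes of 6 on the list of these electron donors, 3 were higher and 1 lower at 4 °C in WT, and 3 and 2 in AdC3KO. Calls in this paragraph are read beside the 30.6% higher and 30.8% lower of all genes in WT. In AdC3KO these shares were 31% and 32.1%. Cyb5a, which encodes microsomal cytochrome b5, changed by 0.82 (SE 0.13, adjusted p = 3.18e-05) in WT and 0.77 in AdC3KO. The reductases Cyb5r4 and Cyb5r1 changed by 0.62 and 0.67 in WT and by 0.55 and 0.34 in AdC3KO, while Cyb5r3 changed by −0.44 and −0.54. Of 5 tested desaturases of other lipids, the dihydroceramide desaturase Degs1 rose (0.47 in WT, 0.48 in AdC3KO), the lathosterol oxidase Sc5d fell (−0.39 in each genotype), and 3 did not pass.

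Among genes that supply or extend the chains, shares are read beside the 30.6% higher and 30.8% lower of all genes in WT, and 31% and 32.1% in AdC3KO. Of 7 fatty acid synthesis genes, 5 were lower and 0 higher in WT, and 4 and 0 in AdC3KO. Acaca, the acetyl-CoA carboxylase of lipogenesis, changed by −1.68 in WT (SE 0.35, adjusted p = 0.00124) and −1.70 in AdC3KO (adjusted p = 0.00109). Acly, the ATP citrate lyase, changed by −1.37 and −1.21, the acetyl-CoA synthetase Acss2 by −0.88 and −0.95, and the citrate carrier Slc25a1 by −0.64 and −0.82. Of the 13 genes of fatty acid elongation, 9 were higher and 2 lower in WT and 10 and 2 in AdC3KO. Elovl4 and Elovl2 entered the test only through their 4 °C libraries. For WT, mean Elovl4 was 0.24 CPM at 30 °C against 2.05 CPM at 4 °C, and mean Elovl2 was 0.23 against 0.41 CPM. The elongation counts, and the elongation median given below, hold these genes and are descriptions. Elovl3, the elongase of saturated and monounsaturated very long chains, rose by 7.89 in WT (SE 0.39, adjusted p = 2.72e-09) and 8.73 in AdC3KO, the dehydratase Hacd2 by 2.09 and 2.35 and the ketoreductase Hsd17b12 by 1.39 and 1.43, while the enoyl reductase Tecr changed by −0.81 and −0.77. The median log2 fold change in WT was −0.88 for synthesis and 0.73 for elongation, against −0.026 for all genes.

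Transcription factors and cofactors that act on desaturase genes also went both ways, 5 higher and 5 lower of 14 in WT and 6 and 6 in AdC3KO. Of all tested genes 30.6% were higher and 30.8% lower in WT, and 31% and 32.1% in AdC3KO. Srebf1, which encodes SREBP-1, fell from 213 to 298 CPM at 30 °C to 19.8 to 42.9 CPM at 4 °C over both genotypes, a log2 fold change of −3.30 in WT (SE 0.23, adjusted p = 3.67e-08) and −3.25 in AdC3KO. Mlxipl, which encodes ChREBP, changed by −2.12 (SE 0.09) and −1.94. Nr1h3, which encodes LXR alpha, rose by 0.88 and 0.90, and the SREBP-retaining protein Insig2 by 0.77 and 0.58. Scd1 had no call in either genotype beside these changes.

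**Figure D4:**
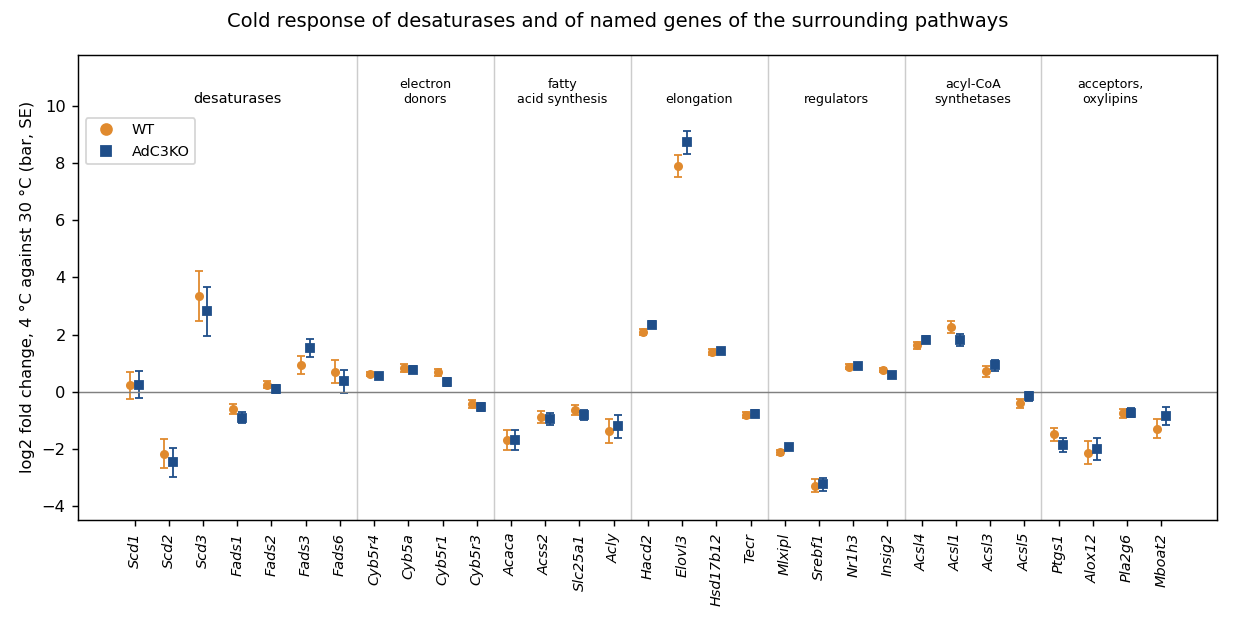
Log2 fold change at 4 °C against 30 °C (vertical axis) with its SE in WT (circles) and AdC3KO (squares), for the 7 tested desaturases and for up to 4 named genes of each surrounding pathway list. Srebf1 and Mlxipl lie at or below −1.94 and Elovl3 above 7.8, while Scd1 lies within 1 SE of 0.

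Long-chain acyl-CoA synthetases, which make the coenzyme A esters, counted 3 higher and 1 lower of 4 tested in WT and 3 and 0 in AdC3KO. This count and that of the next list are read beside the 30.6% higher and 30.8% lower of all genes in WT. In AdC3KO these shares were 31% and 32.1%. Acsl4, which prefers polyunsaturated chains, rose by 1.63 (SE 0.13) in WT and 1.82 in AdC3KO, and Acsl1, the main synthetase of fat, by 2.26 (SE 0.20) and 1.81. Of 10 tested genes that place polyunsaturated chains into phospholipids or turn them into oxylipins, 1 was higher and 6 lower in WT, and 0 and 5 in AdC3KO. They included the cyclooxygenase Ptgs1 (−1.50 in WT, −1.86 in AdC3KO), the platelet-type lipoxygenase Alox12 (−2.13 and −2.02), the phospholipase Pla2g6 (−0.75 and −0.74) and the acyltransferase Mboat2 (−1.29 and −0.86). Without the libraries with muscle transcripts, the count of this last list fell from 7 to 4 in WT. In AdC3KO that fit, with its 1 library at 30 °C, reduced the counts of electron donors from 5 to 2, of other desaturases from 2 to 1, of regulators from 12 to 7 and of this list from 5 to 3. No called gene of these lists turned its sign with upper-quartile or RLE scaling, with DESeq2 or without those libraries.

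The other protein-coding genes within 100 kb of a desaturase went both ways, with more called lower than higher. Their median log2 fold change was −0.48 in WT and −0.55 in AdC3KO, against −0.026 and −0.056 over all genes. Their calls are read beside the 30.6% higher and 30.8% lower of all genes in WT, and 31% and 32.1% in AdC3KO. Of 14 tested, 3 were higher and 7 lower in WT, and 3 and 8 in AdC3KO, where the 11 calls became 7 without the libraries with muscle transcripts. Chuk, a kinase of NF-kappaB signalling near Scd3, rose by 1.82 in WT and 1.70 in AdC3KO, and Dagla, a diacylglycerol lipase near Fads1, by 3.38 and 3.21. Myrf, also near Fads1, entered the test only through its 4 °C libraries, so counts that hold it are descriptions. Near Fads6, Nat9 changed by −1.42 and −1.47 and Hid1 by −2.14 and −1.47. None of the 72 tested genes of the 8 lists, the neighbours included, was called between the genotypes by edgeR or by DESeq2 at either temperature or in the interaction. Unadjusted p-values below 0.05 by edgeR numbered 1 at 30 °C, 3 at 4 °C and 1 in the interaction. Over all 15949 tested genes they numbered 212, 765 and 349.

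Fads3 and Fads2 are the closest pair of desaturase genes, and only for Fads3 was a call made, although the difference between their responses was not tested. The promoter table of RefSeq for GRCm38.p6 matched 5 of the 8 genes, Scd3, Scd4, Fads2, Fads3 and Fads6, with 250 bases before and 50 after the start. Searched on both strands for CCAAT, for the sterol response element core TCACCCCAC, for the E-box CACGTG and for the cyclic AMP element TGACGTCA, only the Fads3 window held a match. It held CCAAT at position −106 from the start and its reverse complement at −78, shown in capitals in the 150 bases before the start (chr19:10041398-10041547, plus strand).
Fads3: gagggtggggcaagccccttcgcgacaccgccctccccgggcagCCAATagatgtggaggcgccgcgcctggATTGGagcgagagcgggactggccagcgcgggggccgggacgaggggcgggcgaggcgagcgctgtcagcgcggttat
Of 32851 promoters of the same length 37.4% held CCAAT, 0.551% the sterol element core, 7.15% the E-box and 1.79% the cyclic AMP element.

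Profiles over the 14 libraries were compared with those of 9450 protein-coding genes of at least 5 CPM by the root mean square difference of centred log2 CPM. The genes closest to Scd1 were Fam57b, Relb and H2-Q10, at 0.39 to 0.42 where the spread of Scd1 itself was 0.62. Among the 3 closest to Scd2 were Mfsd12 and Rbm38 (both 0.46, own spread 1.32), and closest to Scd3 were Npr3, Marc1 and Dusp1 (0.78 to 0.80, own spread 1.83). Among the 3 closest to Fads1 were Grk6 and Tmem150a (0.19 and 0.20, own spread 0.47). Closest to Fads2 were Pnpt1, Lypla2 and Asah1 (0.12, own spread 0.17), to Fads3 Syn2, Cystm1 and Zfp691 (0.28 to 0.29, own spread 0.74) and to Fads6 Ctsk, Fah and Lrrc8d (0.26 to 0.32, own spread 0.51). Scd3, Scd4 and Fads6 were below 5 CPM and so could not be named. No other desaturase was among the 3 closest genes of a member.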

How the data were processed

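RNA sequencing of mouse brown adipose tissue gave 14 libraries in 4 groups, taken from the genotype and treatment labels. The authors trimmed reads with Trimmomatic, aligned them to GRCm38/mm10 with STAR and counted them per gene with HTSeq, per the labels' design text and the submitters' processing notes. The deposited values are raw whole-number counts per Ensembl gene. No source used here gives versions or the strand setting. The 5 summary lines that name no gene were left out; reads outside any gene were 5.95% to 8.19% of a library and reads on more than 1 gene 5.53% to 6.03%. GENCODE vM21 named 99.4% of identifiers.

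The count model was edgeR 4.0.16 (R 4.3.3). Low counts were removed by filterByExpr on the 4 groups (minimum count 10), and libraries were scaled by TMM (factors 0.822 to 1.21) and tested with robust quasi-likelihood F-tests in 1 fit of all 14 libraries, with Benjamini-Hochberg adjustment at 0.05 over 15949 genes. DESeq2 1.42.0, other scalings and filters, a fit of the compared groups alone, a replicate block, each library left out in turn and the libraries with muscle transcripts left out were alternatives; those on the pathway lists were added after the data were seen. The analysis was tested on simulated counts. Within groups, pairs of libraries differed beyond sampling noise (chi-square over its degrees of freedom 16.9 to 83.5), so none was the same library sequenced again. This cannot tell separate animals from separate preparations of the same animal. Counting intervals cover counting error only.

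The rule for naming genes takes all 8 desaturases, up to 4 called genes of each list by adjusted p in WT, the 3 most similar profiles and the neighbours within 100 kb. Members and lists were chosen with earlier results of these data known. One listed gene of the other desaturases was not analysed here, and a few genes that the naming rule takes are not reported here.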

Additional observations from a re-analysis of the deposited data

How the results depend on the processing

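With each library left out in turn, 3 to 4 desaturases were called for cold in WT and 3 to 4 in AdC3KO. The other settings gave 3 to 5 in WT and 2 to 5 in AdC3KO, the 2 being without the libraries with muscle transcripts, where AdC3KO at 30 °C has 1 library. The genotype and interaction counts were 0 throughout. Upper-quartile scaling moved the all-gene median in the cold (log2) from −0.026 to −0.27 in WT and from −0.056 to −0.29 in AdC3KO, and the share of higher among called genes from 49.9% to 36.2% and from 49.1% to 36.4%. Values that turned sign were all uncalled, and the cause was not tested. They were Scd1 in the cold with upper-quartile scaling (−0.024 in WT) and without the muscle libraries (−0.17 in WT, −0.10 in AdC3KO), and Fads2 in AdC3KO in the cold with upper-quartile scaling (−0.13) and a filter at 5 CPM (−0.054). Between genotypes they were Fads2 at 30 °C with that filter (−0.000906) and, without the muscle libraries, Fads2 (−0.082), Scd2 (0.017) and Scd3 (0.48) at 30 °C, Fads3 at 4 °C (−0.064) and the interaction of Fads6 (0.093). Leaving out 1 library gave −0.17 to 0.53 for Scd1 in WT and −0.0068 to 0.50 in AdC3KO in the cold. At 30 °C between genotypes it gave −0.46 to 0.11 for Scd2, −1.70 to 0.94 for Scd3, −0.18 to 0.059 for Fads1, −0.098 to 0.093 for Fads2 and −0.54 to 0.19 for Fads6. At 4 °C it gave −0.049 to 0.22 for Fads3, and in the interaction −0.29 to 0.41 for Scd1, −0.52 to 0.062 for Scd2, −1.62 to 1.03 for Scd3 and −0.58 to 0.15 for Fads6. Shares by counts instead of per kb moved by more than 1 SD for Fads1 (34.1% in WT at 30 °C, 16% in WT and 13.2% in AdC3KO at 4 °C), Fads2 (21.2% and 14.5% in AdC3KO at 30 °C and 4 °C) and Fads6 (1.61% and 1.68% at 30 °C, 1.77% and 1.36% at 4 °C, in WT and AdC3KO), by the construction of that measure. The replicate numbers of the titles did not pair the libraries (correlation of deviations −0.34 to 0.052). With the replicate block 4 desaturases were called in each genotype, with Scd2 at −2.27 in WT and −2.66 in AdC3KO, and no call of a desaturase changed.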
